A study of Homo sapiens with 14 samples.

Results

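Xenograft libraries with a high share of 7SL RNA were compared with libraries of the same study with a low share. The 7SL RNA is the RNA of the signal recognition particle and is encoded by RN7SL1 and RN7SL2. The libraries were selected on a measured value, the percentage of all counts of a library that fell on these 2 genes. A share of 8% or more put a library in the high class and a share under 5% in the low class, which gave 6 high and 6 low libraries of 14 in all. The other 2 libraries lay between the thresholds and stayed out of the comparison. Because the share chose the classes, the levels of RN7SL1 and RN7SL2 are described without a test.

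All libraries came from tumours that UMUC3 cells, an established line of human bladder cancer, formed in mice. The engrafted cells carried either a control short hairpin (Control_sh in the titles) or a FASN knockdown, made by a method the labels do not give. FASN encodes fatty acid synthase, which makes palmitate. Cells had been kept in regular medium or had been exposed before engraftment to medium with 10% cigarette smoke medium (CSM), so that exposure ended before the tumours grew. The high class held control replicates 2 and 3, FASN knockdown replicates 1 and 2, replicate 3 of the control after CSM and replicate 2 of the FASN knockdown after CSM. In the low class were FASN knockdown replicate 3, replicates 1 and 2 of the control after CSM, and replicates 1, 3 and 4 of the FASN knockdown after CSM. Control replicate 1 and replicate 4 of the control after CSM lay between. The classes therefore differed in medium, with 2 CSM libraries in the high and 5 in the low class, and in genotype, with 3 and 4 FASN knockdown libraries. Whether libraries of 1 group stem from different mice is not in the labels, nor are the strain and age of the mice. The p-values therefore reflect the spread among libraries, some of which may be technical.

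The signal recognition particle binds the signal peptide of a nascent secretory or membrane protein as it leaves the ribosome and takes the ribosome to the endoplasmic reticulum (ER). Its scaffold, 7SL RNA, is made by RNA polymerase III, ends in a short run of U and carries no poly(A) tail. SRP9 and SRP14 bind its Alu domain, and SRP19, SRP54, SRP68 and SRP72 its S domain. At the ER the particle meets its receptor, of SRPRA and SRPRB, and the ribosome is passed on to the SEC61 channel, where signal peptidase cuts the signal peptide.

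RN7SL1 (ENSG00000276168.1) and RN7SL2 (ENSG00000274012.1) both lie on chromosome 14, each as a single noncoding exon (GENCODE 29 annotation). The copies are near-identical, so many reads cannot be assigned to 1 of them, the split between the genes is an estimate and their sum is the firmer value. The other genes with RN7SL names, mostly pseudogene copies, together held 0.0401% to 0.272% of the counts in the libraries compared.

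In the high class the 7SL share was 8.66% and 9.38% in control replicates 2 and 3, 12.9% and 25.6% in FASN knockdown replicates 1 and 2, 11.3% in replicate 2 of the FASN knockdown after CSM and 16.3% in the third replicate of the control after CSM. The low class held 3.89% in FASN knockdown replicate 3, 4.20% and 4.97% in replicates 1 and 2 of the control after CSM, and 2.73%, 2.64% and 2.67% in replicates 1, 3 and 4 of the FASN knockdown after CSM. The highest share stood in the library with the lowest count total, 15810287 in FASN knockdown replicate 2. The library nearest the upper threshold from inside had 8.66%, the 2 libraries left out had 6.35% and 6.33%, and the nearest low library had 4.97%. RN7SL2 held 63.3% to 76.9% of the counts of both genes over the 14 libraries. On the TPM scale, which corrects for length and so weights a transcript this short heavily, 7SL took 17.9% to 27.9% of the total in the low class and 46.8% to 69.1% in the high class.

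**Figure D1:**
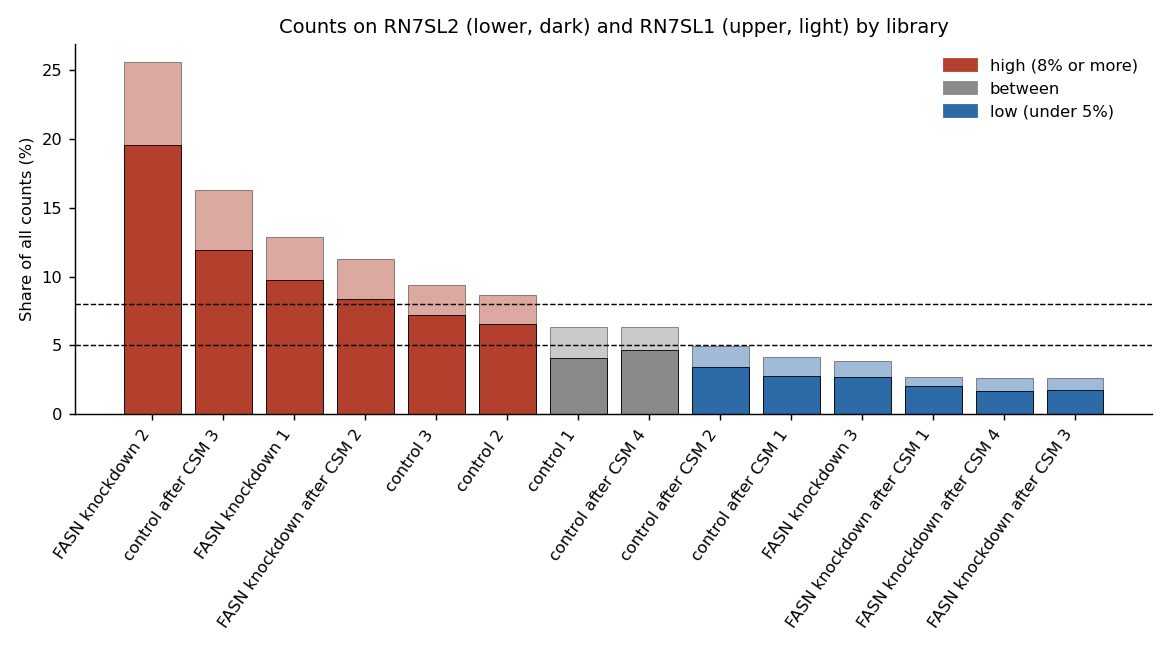
Share of all counts (%, vertical axis) on RN7SL2 (lower part of each bar) and RN7SL1 (upper part) in each of the 14 libraries, ordered by their sum, with dashed lines at the thresholds of 8% and 5%. The 6 high libraries span 8.66% to 25.6% and the 6 low libraries 2.64% to 4.97%, and each class holds control and FASN knockdown libraries.

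Over the 12 libraries the count totals overlapped between the classes, 15810287 to 45209466 in the high and 28092587 to 42612442 in the low class. FASN, the targeted gene (chromosome 17, 82078333 to 82098332), was at 371 to 415 CPM (the count relative to the TMM-scaled total of its library) in the control libraries of the high class and 463 to 478 CPM in those of the low class. It was at 98.5 to 164 CPM in FASN knockdown libraries of the high class and 136 to 492.5 CPM in those of the low class. The library labelled replicate 4 of the FASN knockdown after CSM, at 492.5 CPM, goes against its label. FASN differed between the classes by a log2 value of -0.81 (SE 0.28) and was not called in edgeR (adjusted p = 0.0597), whereas DESeq2 called it lower (adjusted p = 0.0216). Of 20 urothelial and epithelial markers 10 passed the filter on low counts, among them KRT18 at a mean of 138 and 143 CPM, whereas UPK1A, UPK2, UPK3A, KRT20, EPCAM and ELF3 did not pass it. None of the 10 was called in edgeR or in DESeq2, and 2 had an unadjusted p below 0.05 in edgeR.

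Measures of the libraries that the rule did not use also differed between the classes. Mean fragment length, read from the deposited effective lengths, was 184.6 to 199 bases in the high class (mean 190.8 ± 5.46, SD, n = 6) and 161.5 to 182.6 bases in the low class (171.9 ± 8.13, SD, n = 6). The classes did not overlap. Counts on mitochondrially encoded genes were 0.736% ± 0.313 of the counts outside the RN7SL family in the high class and 2.12% ± 0.763 in the low class (SD, n = 6 each), again without overlap. Genes at 1 CPM or more numbered 14901 to 16542 in the high and 15981 to 17462 in the low class. Each of these 3 differences gave p = 0.0029 in an exact, two-sided permutation test within genotype, the smallest p that its 350 arrangements allow, and an adjusted p of 0.0107 over the 15 measures tested. Retained-intron transcripts held 5.49% ± 1.10 and 7.11% ± 1.38 of these counts in the high and low class, and lncRNA transcripts 3.83% ± 0.905 and 5.54% ± 2.11 (SD, n = 6 each). Neither passed after adjustment, with adjusted p = 0.0929 and 0.122 in the same exact permutation test, nor did the share of the cytosolic ribosomal protein genes (adjusted p = 0.327). Within the CSM libraries alone, 2 high against 5 low, mean fragment length was 188 and 174 bases and the mitochondrial share 0.719% and 1.92%.

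**Figure D2:**
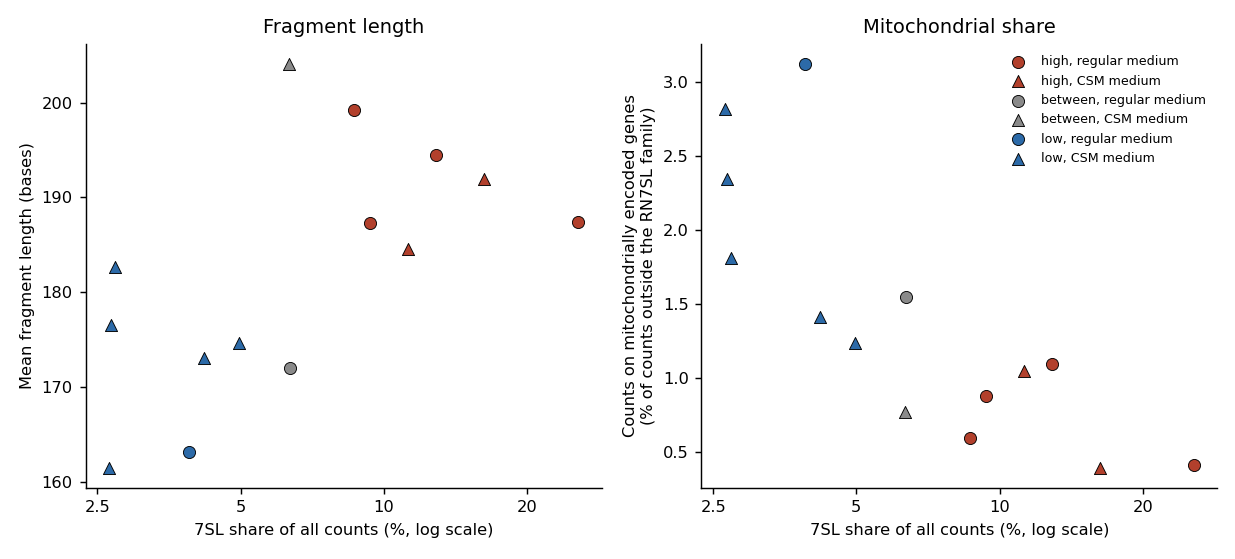
Mean fragment length (bases, left) and the share of counts on mitochondrially encoded genes (% of counts outside the RN7SL family, right) against the 7SL share (%, log axis), 1 point per library, with circles for regular medium and triangles for CSM. High libraries lie above 184 bases and at or under 1.10% mitochondrial counts, low libraries under 183 bases and above 1.23%.

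Of 19706 genes tested, 3472 were called between the classes at an adjusted p below 0.05 (17.6%), with genotype as covariate in edgeR's quasi-likelihood test. Of these, 1767 were higher in the high class (8.97% of the genes tested) and 1705 lower (8.65%). For 1613 genes (8.19%) the 6 high and 6 low libraries did not overlap, and 6655 genes had an unadjusted p below 0.05. The median over all genes tested was a log2 difference of -0.09. In bulk tissue, fewer cells of a type and less RNA per cell cannot be told apart. A term for the interaction of class and genotype called 0 of 19706 genes (edgeR), with 542 at an unadjusted p below 0.05.

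With mean fragment length as a second covariate, an alternative chosen after the lengths had been seen, edgeR called 0 of the 19706 genes, with 1022 at an unadjusted p below 0.05 and a lowest adjusted p of 0.837. No other tool was run with this term. Among the 3472 called genes, 3462 kept their direction, the median size of the log2 difference went from 0.77 to 0.58, and the median SE went from 0.19 to 0.35. The 7SL class and fragment length cannot be told apart by this test in these libraries, and every call named below carries that limit. Within the CSM libraries, 2 against 5, edgeR called only HMGN2P5, a pseudogene at 0 CPM in the 2 high ones. That fit, with its own filter on low counts, tested 22279 genes, of which 4345 reached an unadjusted p below 0.05. Of the calls tested there, 3470 of 3471 kept their direction, but these CSM libraries were also in the fit that made the calls. The agreement is therefore not independent support. With medium as a second covariate 3708 genes were called, 2810 of them shared with the 3472. On deposited TPM, where 7SL displaces all other genes and the median shifted to -0.67, limma called 12242 genes, 30 of them higher. With the RN7SL family taken out of the TPM, it called 1877 genes, 475 higher and 1402 lower, at a median of -0.19. Single libraries moved the count by over 1.5 times: it was 1741 without replicate 1 of the control after CSM, 1879 without FASN knockdown replicate 1 and 2111 without FASN knockdown replicate 2. FASN knockdown replicate 2, with the lowest count total, and the library labelled replicate 4 of the FASN knockdown after CSM, with FASN at the level of the controls, were doubted for depth and for label, and without both the count was 1820. FASN knockdown replicate 3 differed most from the other replicates of its group, by a chi-square per gene of 263 and 242, against 57.8 between these 2. It was the only low library of that group and the other 2 were high, so library and class cannot be told apart in this contrast. Without FASN knockdown replicate 3 the number of genes called between high and low 7SL libraries was 2746.

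Protein subunits of the signal recognition particle and its receptor were higher in the high 7SL libraries. Of 8 members, all tested, 5 were called higher and 0 lower, at a median log2 difference of 0.57 against -0.09 over all genes tested. Over all genes 8.97% were called higher and 8.65% lower. SRP9, which binds the Alu domain, was at 67.9, 81.2 and 103 CPM (lowest, median and highest) in the high class and 27.98, 44.8 and 58.7 CPM in the low class, without overlap (chromosome 1, 225777813 to 225790466). It rose by a log2 value of 0.84 (SE 0.17, edgeR adjusted p = 0.00756). SRP54, the GTPase that binds signal peptides, stood at 66.0, 85.3 and 110 CPM against 39.3, 51.2 and 66.9 CPM (chromosome 14, 34981957 to 35029567). The lowest high library lay just under the highest low one, and the log2 difference was 0.76 (SE 0.15, edgeR adjusted p = 0.00698). SRP72 and SRP68, which bind 7SL as a pair, rose by 0.64 and 0.50, from means of 68.9 and 60.8 CPM to 112 and 90.9 CPM. SRPRB, the membrane anchor of the receptor, had the largest difference of the list. It was at 52.6, 77.2 and 116 CPM in the high class and 17.4, 46.7 and 48.0 CPM in the low class, a log2 difference of 1.14 (SE 0.26, edgeR adjusted p = 0.0107). SRP14, SRP19 and SRPRA were not called, with log2 differences of 0.28, 0.23 and 0.27. Without 1 library at a time 4 or 5 of the 8 were called higher, and 4 without the 2 libraries in doubt. The most abundant transcript of SRPRB was one with a retained intron. On deposited TPM the median of the list turned to -0.59, but it stood 0.08 above that of all genes. It stood 0.67 above it in the counts.

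**Figure D3:**
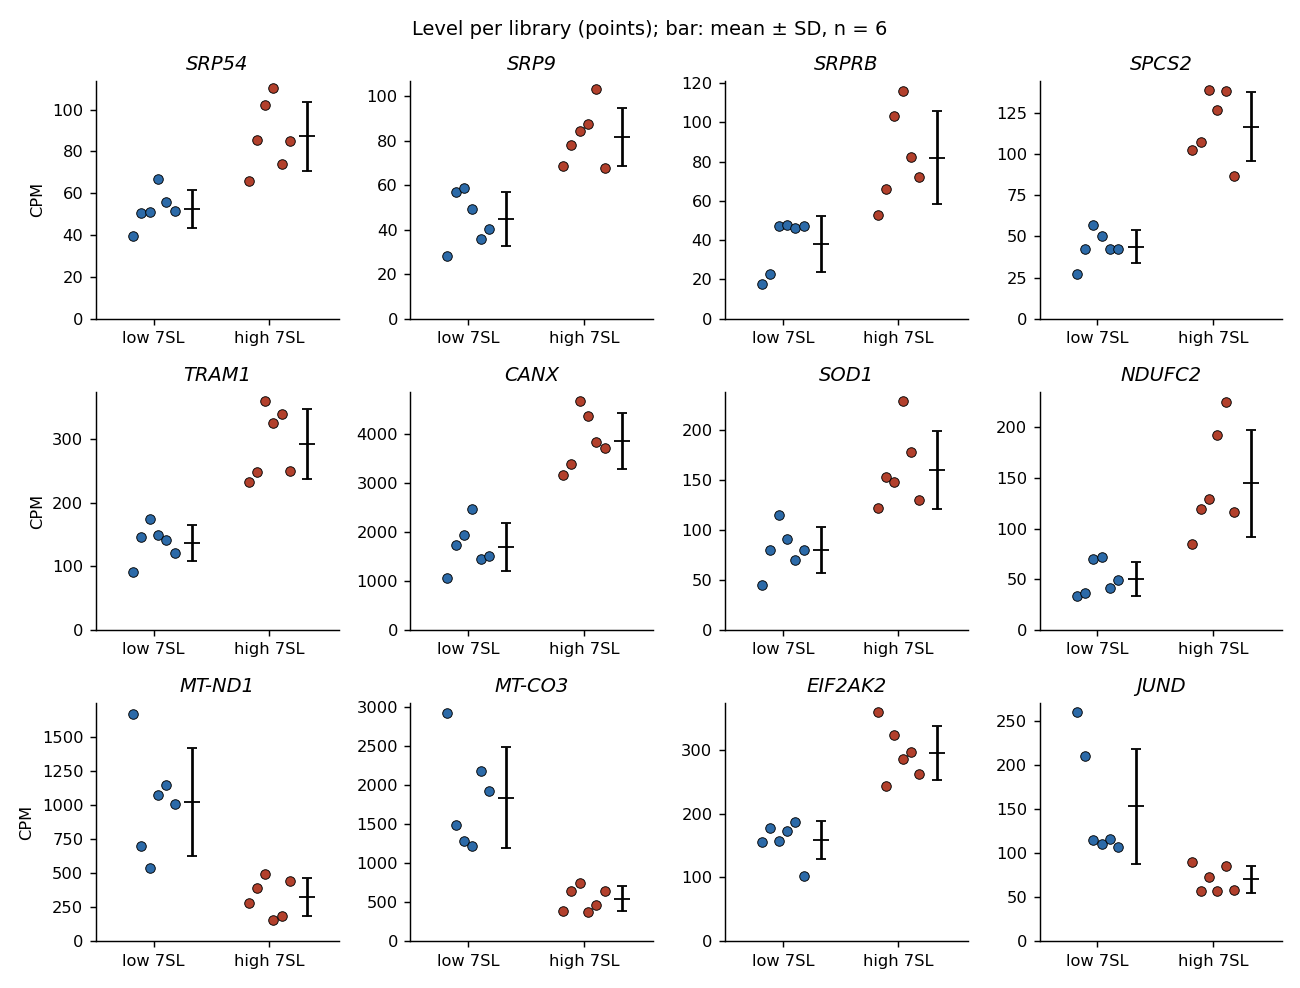
Level (CPM, linear axes from 0) of 12 genes in the 6 low and 6 high 7SL libraries, 1 point per library, with the mean and SD beside each class. SRP9, SRPRB, SPCS2, TRAM1, CANX, SOD1, NDUFC2 and EIF2AK2 are higher and MT-ND1, MT-CO3 and JUND lower in every high library than in any low one, whereas the SRP54 points touch.

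The machinery that receives the ribosome at the ER was also higher, in part. Of 23 genes for the translocation channel, its partners, signal peptidase and oligosaccharyl transferase, 9 were called higher and 0 lower, with a list median of 0.48. The shares over all genes were 8.97% and 8.65%. SPCS2, a signal peptidase subunit (chromosome 11, 74949247 to 74979031), was at 86.9, 117 and 139 CPM in the high class and 27.3, 42.5 and 57.2 CPM in the low class. Its log2 difference of 1.40 (SE 0.18, edgeR adjusted p = 0.00513) was the largest of the list. SPCS3, of the same complex, rose by 0.88 from a mean of 69.5 to 134 CPM. TRAM1, a membrane protein beside the channel, rose by 1.09 (SE 0.18, edgeR adjusted p = 0.00545), from 90.9 to 174.5 CPM in the low class to 233 to 361 CPM in the high class. SEC62 and SEC63, which help proteins through the channel, rose by 0.94 and 0.65, and the translocon-associated SSR3 and SSR1 by 0.70 and 0.48. DDOST and STT3B of oligosaccharyl transferase rose by 0.61 and 0.76. The channel subunits themselves were not called: SEC61A1 was at means of 378 and 357 CPM in the high and low class, and SEC61B and SEC61G had log2 differences of 0.51 and 0.70 (edgeR adjusted p = 0.103 and 0.0801). Without the 2 libraries in doubt 6 of the 23 were called higher. On deposited TPM the list median was -0.51, which was 0.16 above that of all genes, and it was 0.57 above it in the counts.

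Of 20 COPII and Golgi transport genes, which carry cargo onward from the ER, 3 were called higher and 1 lower, at a median of 0.09. Over all genes 8.97% were called higher and 8.65% lower. SAR1A, the GTPase that starts a COPII coat (chromosome 10, 70147289 to 70170523), was at 158, 176 and 195 CPM against 77.0, 111 and 140 CPM, without overlap. SEC23A, a coat subunit, and COPB1, of the retrograde coat, rose by 0.60 and 0.54, and SEC16A fell by 0.42 on the log2 scale. Without replicate 2 of the control after CSM 5 were called higher, and without any of 10 of the 12 libraries, each left out in turn, 0 were called lower.

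Of 30 genes of the unfolded protein and integrated stress response, 10 were called higher and 4 lower, at a median of 0.29 against -0.09 over all genes. The shares over all genes were 8.97% higher and 8.65% lower. CANX, the membrane-bound lectin chaperone calnexin (chromosome 5, 179678628 to 179730925), was at 3156, 3778 and 4672 CPM in the high class and 1053, 1625 and 2475 CPM in the low class, a log2 difference of 1.19 (SE 0.20, edgeR adjusted p = 0.00576). Its most abundant transcript entry was one without a defined coding sequence. PDIA4, a protein disulfide isomerase, stood at 459, 574 and 723 CPM against 156, 281 and 339 CPM and rose by 1.11. PDIA6, CALR and HSP90B1 rose by 1.09, 1.03 and 0.65, and DNAJC3, an ER co-chaperone, by 0.64. The 4 that fell were ATF3, SESN2, TRIB3 and ATF4, by 1.38, 1.09, 0.80 and 0.56 on the log2 scale. Of the 30, 0 were called lower without FASN knockdown replicate 3 or without replicate 2 of the FASN knockdown after CSM. The number was 1 without FASN knockdown replicate 1 or 2, replicate 4 of the FASN knockdown after CSM, replicate 1 of the control after CSM or control replicate 3, and also without the 2 libraries in doubt. It was 2 without replicate 3 of the control after CSM. With medium as covariate 6 were called higher and 5 lower.

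Among the other small RNAs that polymerase III makes, 8 of 13 in the list were tested, 1 was called higher and 1 lower, at a median of 0.03. The number called higher was 3 without control replicate 2 or 3 and 2 without FASN knockdown replicate 3 or replicate 2 of the FASN knockdown after CSM. It was 0 without FASN knockdown replicate 2, without replicate 1 or 3 of the control after CSM or without replicate 3 of the FASN knockdown after CSM. FASN knockdown replicate 2 left out gave 2 lower, and DESeq2 called 3 higher and 1 lower. RPPH1, the RNA of RNase P, had means of 16050 ± 10140 CPM and 7578 ± 1634 CPM in the high and low class (SD, n = 6 each) and a log2 difference of 1.07 that narrowly missed the threshold (edgeR adjusted p = 0.0504). RMRP, the RNA of RNase MRP, was at 2078 and 3167 CPM and was not called (log2 difference -0.61, edgeR adjusted p = 0.183). RNY1, a Y RNA, rose by 1.63 but at means of only 4.06 and 1.30 CPM, and it lost its call with medium as covariate (edgeR adjusted p = 0.0654). BCYRN1, an Alu-derived RNA, fell from a mean of 29.6 to 9.53 CPM, a call that was likewise lost with medium as covariate (edgeR adjusted p = 0.0665). Of 31 genes for polymerase III subunits and its factors, 4 were called higher and 1 lower, beside 8.97% and 8.65% over all genes. GTF3C6, of the factor TFIIIC, rose by 1.22 (SE 0.23, edgeR adjusted p = 0.00668) from 19.1 to 59.7 CPM in the low class to 81.6 to 126 CPM in the high class. SNAPC5, POLR1C and POLR3K rose by 0.81, 0.96 and 0.68, and SNAPC4 fell by 0.85 on the log2 scale. The large subunits POLR3A and POLR3B had log2 differences of 0.14 and 0.46 and were not called.

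The 7SK RNA, a polymerase III transcript that holds the elongation factor P-TEFb inactive, showed a difference that depended on which of its 2 entries was read. The tables carry an entry of 331 bases named 7SK (ENSG00000202198.1, chromosome 6, 52995620 to 52995950, plus strand) and one of 328 bases named RN7SK (ENSG00000283293.1, 52995621 to 52995948, plus strand; both GRCh38, GENCODE 29). They share all 328 bases, and the longer has 1 more base at the 5′ end and 2 more at the 3′ end. The first and last 30 bases of each are shown because the split of reads rests on those ends, with the extra bases in capitals.
7SK, 5′ end: Ggatgtgagggcgatctggctgcgacatct
RN7SK, 5′ end: gatgtgagggcgatctggctgcgacatctg
7SK, 3′ end: ggcgctgcatgtggcagtctgcctttctTT
RN7SK, 3′ end: gaggcgctgcatgtggcagtctgcctttct
The longer entry took 6.98% to 10.7% of the 7SK counts in the high class and 0.0356% to 4.38% in the low class, where the library at 4.38% was replicate 1 of the FASN knockdown after CSM and the other 5 were at or under 0.475%. It was at 783, 1351 and 2520 CPM in the high class and 4.81, 34.0 and 181.5 CPM in the low class, a log2 difference of 5.05 (SE 0.79, edgeR adjusted p = 0.00523). The shorter entry did not differ, with 15520 and 15380 CPM and a log2 difference of 0.02 (edgeR adjusted p = 0.971). Both entries together stood at 17710 ± 6385 and 17230 ± 8097 CPM, over the counts outside the RN7SL family, in the high and low class (SD, n = 6 each), with full overlap. The level of the longer entry is therefore an estimate of how reads were divided, not of the amount of 7SK RNA. The same entry made up the class difference of all misc_RNA genes outside the RN7SL family, 0.174% and 0.0220% of counts, which was 0.0135% and 0.0160% without it. Of 7 proteins of the 7SK particle, 1 was called higher and 0 lower: LARP7, which binds the 3′ end of 7SK, rose by 0.66 (SE 0.19, edgeR adjusted p = 0.0298), a call lost with medium as covariate (edgeR adjusted p = 0.0544). None of the 7 was called without FASN knockdown replicate 1 or replicate 1 of the control after CSM. Over all genes 8.97% were called higher.

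**Figure D4:**
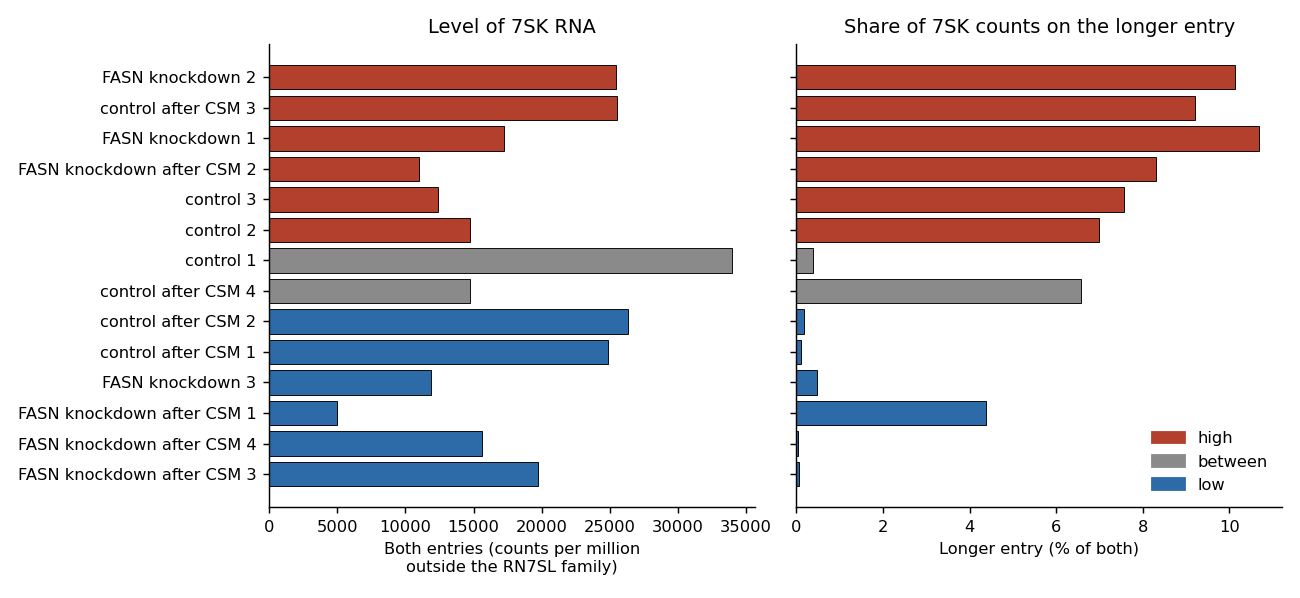
Counts of the 7SK RNA in each of the 14 libraries, ordered by 7SL share from the top: both entries in CPM of the counts outside the RN7SL family (left), and the longer entry as a percentage of both (right). The level overlaps between the classes, whereas the longer entry is at 6.98% or more in every high library and at 4.38% or less in every low one.

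Of 13 spliceosomal snRNAs in the list 8 were tested, 0 were called higher and 2 lower, at a median of -1.22, beside 8.97% and 8.65% over all genes. The mean log2(CPM + 0.5) of the 8 overlapped between the classes, at 2.465 to 4.355 in the high and 2.645 to 4.875 in the low class. RNU4-1, of the U4 particle, had 4.93 CPM ± 3.55 and 17.7 CPM ± 8.11 in the high and low class (SD, n = 6 each) and fell by 1.88 on the log2 scale. RNU12, of the minor spliceosome, had means of 0.0956 and 1.76 CPM, near the floor of the counts, and fell. It passed the filter on low counts through the low class, where it is higher. The more abundant RNU2-1 was at means of 804 and 940 CPM and was not called (log2 difference -0.65, edgeR adjusted p = 0.397). These genes have many near-identical copies, so their split between entries is uncertain. With fragment length as covariate the median of the list stood 0.04 above that of all genes, against 1.13 below it without. None of the 8 was called without replicate 1 of the control after CSM, and 4 were called lower without replicate 3 of that group or without replicate 1 of the FASN knockdown after CSM.

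Messenger RNAs of the mitochondrial genome were lower in the high 7SL libraries. Of 13, all tested, 10 were called lower and 0 higher, at a median of -1.23, beside 8.65% and 8.97% over all genes. MT-CO3, a subunit of cytochrome c oxidase (mitochondrial genome, 9207 to 9990), was at 369, 550 and 749 CPM in the high class and 1222, 1705 and 2919 CPM in the low class. It fell by 1.68 on the log2 scale (SE 0.24, edgeR adjusted p = 0.00513). MT-ND1, a subunit of complex I (3307 to 4262), was at 154, 334.5 and 494 CPM against 541, 1039 and 1674 CPM and fell to 31.6% of its low mean (SE of the log2 difference 0.29, edgeR adjusted p = 0.00685). For 9 of the 13 the classes did not overlap, against 8.19% of all genes tested. MT-ND4L fell by 2.75, but it overlaps MT-ND4, and reads of the 2 cannot be fully told apart. MT-ND3, MT-ATP8 and MT-ND6 were not called. MT-ND6, which lies on the opposite strand from the other mRNAs, was at means of 134 and 85.2 CPM. The count of 10 held without the 2 libraries in doubt, and without any 1 library 10 or 11 were called lower.

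The nuclear genes for the same respiratory complexes did not follow. Of 75, 12 were called higher and 6 lower, at a median of 0.18, beside 8.97% higher and 8.65% lower over all genes. NDUFC2, of complex I (chromosome 11, 78068304 to 78080219), was at 84.8, 124 and 225 CPM against 33.8, 45.3 and 72.0 CPM and rose by 1.51 (SE 0.26, edgeR adjusted p = 0.00576). NDUFA12, also of complex I, rose by 0.79, and ATP5F1D, of ATP synthase, fell by 0.78 on the log2 scale from 79.4 to 49.3 CPM. Without FASN knockdown replicate 2 only 7 were called higher, and without 1 library at a time 2 to 8 were called lower, the 2 without replicate 1 of the control after CSM. Among 83 tested genes for proteins of the cytosolic ribosome, 11 were called higher and 3 lower, at a median of 0.02. The same 8.97% and 8.65% over all genes apply to this list. RPS14 had the largest rise, 1.85, from 402.5 to 1540 CPM in the low class to 1779 to 6103 CPM in the high class, and RPL26 and RPL13 were among those that fell. RPS3 and RPL9 rose by 1.07 and 1.56. The ribosomal falls numbered 0 without replicate 1 of the control after CSM or replicate 2 of the FASN knockdown after CSM. These genes have many processed pseudogenes, with which reads can be shared.

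Interferon-induced genes and sensors of RNA were higher in part of the high libraries. Of 36 tested, 15 were called higher and 0 lower, at a median of 0.74, beside 8.97% and 8.65% over all genes. EIF2AK2, the kinase PKR that double-stranded RNA activates (chromosome 2, 37099210 to 37157065), was at 243, 291 and 361 CPM in the high class and 103, 165 and 187 CPM in the low class, without overlap. It rose by 0.88 (SE 0.16, edgeR adjusted p = 0.00655). BST2, an antiviral membrane protein, spread more widely, at 7.71, 21.7 and 59.6 CPM against 1.07, 4.46 and 10.2 CPM, and rose by 2.38. IFIT1 and IFI6 rose by 1.72 and 1.81, with overlapping classes: IFIT1 ran from 63.3 to 299 CPM in the high class and from 16.5 to 135 CPM in the low class. IFIH1, the RNA sensor MDA5, rose by 1.05. The classes did not overlap in 2 of the 36 genes, against 8.19% of all genes tested. The mean log2(CPM + 0.5) of the 36 overlapped, at 5.009 to 6.351 in the high and 3.992 to 5.856 in the low class. The highest low value was that of replicate 3 of the FASN knockdown after CSM. The count fell to 6 without FASN knockdown replicate 1, 8 without FASN knockdown replicate 2, 7 without replicate 1 of the control after CSM and 9 without control replicate 2. It was 7 with medium as covariate and 7 without the 2 libraries in doubt.

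Targets of p53 and immediate early genes included calls that were lower, and their number changed with single libraries left out. Of 21 tested p53 targets, 6 were called lower and 0 higher, at a median of -0.90, beside 8.65% and 8.97% over all genes. The mean log2(CPM + 0.5) of the 21 was 4.435 to 4.96 in the high class. In the low class it was 6.09 in FASN knockdown replicate 3, 5.81 in replicate 1 of the FASN knockdown after CSM and 5.845 in the first replicate of the control after CSM. The other 3 low libraries, at 4.49 to 4.735, lay within the range of the high class, so the p53 difference sat in 3 of the 6 low libraries. CDKN1A, the cell cycle inhibitor p21 (chromosome 6, 36676460 to 36687339), was at 19.4, 41.9 and 60.6 CPM in the high class and 55.2, 99.9 and 326 CPM in the low class. It fell by 1.87 (SE 0.47, edgeR adjusted p = 0.0172). BBC3, which promotes cell death, and DDB2, which binds damaged DNA, fell by 2.22 and 1.77. No p53 target was called lower without replicate 1 of the control after CSM. Of the 21, 1 was called lower without FASN knockdown replicate 1, without FASN knockdown replicate 3 or without replicate 2 of the FASN knockdown after CSM, and 3 without the 2 libraries in doubt. The number was also 3 without control replicate 2, control replicate 3, FASN knockdown replicate 2 or replicate 1 of the FASN knockdown after CSM. Of 21 tested immediate early genes, 8 were called lower and 0 higher, at a median of -0.64, beside the same 8.65% and 8.97% over all genes. JUND, a subunit of the factor AP-1 (chromosome 19, 18279760 to 18281622), was at 56.5, 65.4 and 89.9 CPM against 107, 115 and 260 CPM and fell by 1.17 (SE 0.24, edgeR adjusted p = 0.00800). EGR1 fell by 2.55, but 1 low library, FASN knockdown replicate 3 at 1094 CPM, stood far above the other 5, at 77.0 to 442 CPM. Of the 8, only 2 were called without FASN knockdown replicate 2, without replicate 1 of the control after CSM, without replicate 2 of the FASN knockdown after CSM or without the 2 libraries in doubt. The number was 3 without FASN knockdown replicate 3 and 5 without FASN knockdown replicate 1 or control replicate 3.

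The 62 tested replication-dependent histone genes had a median of -0.08 against -0.09 over all genes. Among them 10 were called higher and 0 lower, beside 8.97% and 8.65% over all genes. Of these 10, 8 encode histone H4 and 2, H2AC25 and H2AC19, histone H2A, a grouping made after the values were seen and not tested. The H4 genes H4C1, H4C9, H4C11 and H4C13 were tested and not called, at log2 differences of 0.41, 0.80, 1.13 and 0.70. H4C2 (chromosome 6, 26026815 to 26027252) was at 114, 150 and 322 CPM in the high class and 16.9, 39.1 and 76.0 CPM in the low class and rose by 1.84 (SE 0.33, edgeR adjusted p = 0.00644). H4C8, H4C14 and H4C5 rose by 1.79, 1.68 and 1.44. Their coding sequences are near-identical, so a read can be shared among them, and the mRNAs end in a stem-loop without a poly(A) tail. Histone genes called lower numbered 4 without replicate 1 of the FASN knockdown after CSM and 5 without replicate 3 of the control after CSM. Among 34 genes of the cell cycle, 3 were called higher, CDC6, TOP2A and KIF11, and E2F1 lower, where 8.97% of all genes were called higher, so the count is near the background. CDC6, which licenses replication origins, was at 41.6, 58.0 and 75.03 CPM against 16.8, 34.4 and 40.8 CPM. Of these cell cycle genes 10 were called higher with medium as covariate, 7 without replicate 4 of the FASN knockdown after CSM and 8 without control replicate 2.

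Other lists held few calls or none, where 8.97% of all genes were called higher and 8.65% lower. Of 25 tested genes of cholesterol synthesis, PMVK rose by 0.89, and TM7SF2 and SREBF2 fell by 1.58 and 0.84 on the log2 scale. SREBF2, the transcription factor of the pathway, was at 148, 206 and 249 CPM against 269, 354 and 540 CPM, without overlap. With medium as covariate 6 of the 25 were called higher and 2 lower. Of 16 tested genes of fatty acid synthesis, 0 were called higher and 2 lower, ACACB and FADS2, by 0.70 each, and neither was called without FASN knockdown replicate 1 or 2 or without replicate 1 of the control after CSM. The NRF2 and oxidative stress list had 4 called higher and 4 lower of 25. SOD1, the cytosolic superoxide dismutase, rose by 0.99 from 45.3 to 115 CPM in the low class to 122 to 229 CPM in the high class, and FTL, the ferritin light chain, fell by 1.16. None of the 4 that fell remained called without replicate 1 of the control after CSM. Among 21 nuclear long noncoding RNAs 2 were called higher and 3 lower. NEAT1, the scaffold of paraspeckles, fell by 1.30 from a mean of 3344 to 1416 CPM (edgeR adjusted p = 0.0276), a call lost with medium as covariate (edgeR adjusted p = 0.0521). PVT1 was also called lower, at 81.9 to 124.5 CPM in the high and 121 to 185 CPM in the low class. SNHG6 and GAS5, which host small nucleolar RNAs, rose by 0.84 and 0.61. In edgeR 0 genes were called among 20 of glycolysis, 23 of the hypoxia response and 14 of NF-kB signalling, with 3, 4 and 4 at an unadjusted p below 0.05. DESeq2 called 1, 2 and 2 of them. Of 16 mesenchymal genes SPARC alone was called, higher by 1.13.

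**Figure D5:**
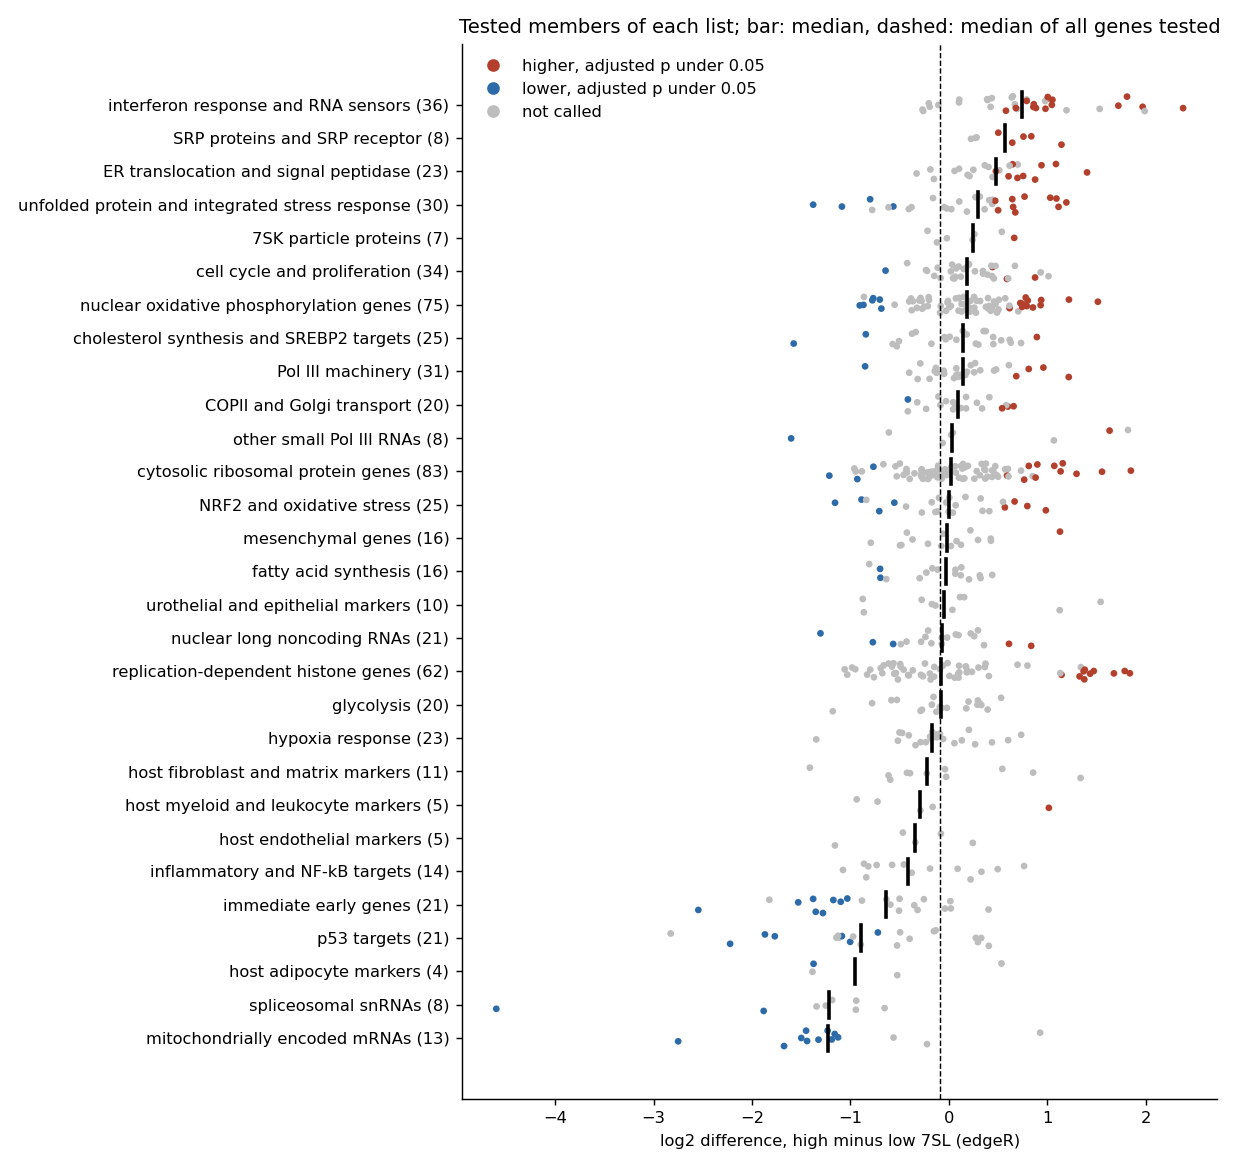
Log2 difference between high and low 7SL libraries (edgeR, horizontal axis) for each tested member of the lists with at least 4 tested members, with the number tested in brackets, the list median as a bar and the median of all genes, -0.09, as a dashed line. Coloured points are called. The medians run from 0.74 for interferon and RNA sensors to -1.23 for mitochondrially encoded mRNAs.

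Markers of mouse host cell types, read as human genes, showed little class difference. Over all genes 17.6% were called in edgeR. Mouse transcripts are not in the tables, so reads of the host could count only where they resemble human sequence. Fibroblast and matrix markers had 0 calls of 11 tested in edgeR, with 5 at an unadjusted p below 0.05 and 1 called lower by DESeq2, and their summed level ran from 106 to 237 CPM in the high and 113 to 239 CPM in the low class. Endothelial markers had 0 calls of 5 by either tool, with 2 at an unadjusted p below 0.05 in edgeR, and sums of 47.4 to 96.6 and 52.7 to 103.5 CPM, with CDH5 and KDR below the filter. Of 5 myeloid and leukocyte markers ADGRE1 was called, higher by 1.02, with sums of 80.3 to 119 and 55.7 to 128 CPM. Of 4 adipocyte markers LIPE was called, lower by 1.38 on the log2 scale, with sums of 2.57 to 7.04 and 5.89 to 12.4 CPM. Red cell markers had 0 calls of 2, and the only tested muscle marker, TNNI2, was not called. The part of host cells in the differences above was not tested.

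Classes of genes by type and level differed in how often they were called. Genes whose most abundant transcript was protein coding had a median log2 difference of 0.03, with 12.8% called higher and 8.89% lower of 11134. For 4594 lncRNA genes the median was -0.36, with 0.871% called higher and 8.29% lower. Genes above 100 CPM had a median of 0.16 and those under 1 CPM of -0.39. Relative to all genes, lncRNA genes stood 0.10 lower on TPM without the RN7SL family and 0.27 lower with medium as covariate.

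Among genes with a protein-coding transcript the largest rise was that of ENSG00000257390 on chromosome 12 (55757275 to 55827546), which was at 8.33 to 19.1 CPM in the high class and 0.0294 to 3.91 CPM in the low class and rose by 3.98. HSPE1-MOB4, a read-through of 2 genes whose reads cannot be fully told apart from theirs, rose by 3.30 from a mean of 0.631 to 6.38 CPM, and MICOS10-NBL1, another read-through, by 2.52 from 16.6 to 95.4 CPM. ENSG00000257390 and HSPE1-MOB4 passed the filter on low counts only through the high class, where they are higher. POLR2F, a subunit shared by the 3 nuclear RNA polymerases (chromosome 22, 37952607 to 38041915), rose by 1.80 (SE 0.24, edgeR adjusted p = 0.00513), at 80.9, 90.1 and 167 CPM against 21.0, 29.5 and 46.8 CPM. Among noncoding genes the largest fall was that of HMGN2P5, a processed pseudogene (chromosome 15, 29730713 to 29730985), at 0 CPM in 5 high libraries and 1.14 CPM in the other, and 12.5 to 41.3 CPM in the low class. It passed the filter on low counts only through the low class, where it is higher. NPIPB3, of a gene family with many near-identical copies, fell by 2.45 from 152 to 27.1 CPM. ISYNA1, which makes inositol phosphate, fell by 2.57, at 0.585 to 2.70 CPM against 4.54 to 35.4 CPM. For ISYNA1, CCDC17 and ASIC3, which fell by 2.57, 2.42 and 2.66, the most abundant transcript was one with a retained intron. ADAM8, a membrane protease, and INMT, a methyltransferase, fell by 1.66 and 1.59 at means under 5 CPM in both classes. The noncoding SNORA6 rose by 2.47, and the long noncoding RNAs LINC02604, LINC01001 and POLR2J4 had log2 differences of -2.68, -2.54 and -2.40. Like HMGN2P5, the genes ASIC3, LINC02604 and LINC01001 passed the filter on low counts only through the low class, where they are higher.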

How the data were processed

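RNA sequencing of 14 xenograft libraries was used as deposited. The authors deposited, per library, estimated counts (expected counts) and TPM values per transcript. Salmon, cutadapt, FastQC and GRCh38 are named, per the submitters' processing notes. Tool versions are not given there, nor is an annotation release. Per the file headers, each transcript also has its length and effective length.

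Expected counts of 252048 transcripts were summed over 62749 genes and rounded. Mouse transcripts are not in the tables. Mean fragment length was read from length minus effective length for transcripts of at least 3000 bases. The main test was edgeR 4.0.16 (quasi-likelihood, TMM, genotype as covariate, filterByExpr with a minimum count of 10 and total of 15, R 4.3.3) on the 12 high and low libraries, with Benjamini-Hochberg adjustment over 19706 genes. The 46 RN7SL family genes that passed the filter stayed out of the tests. DESeq2 1.42.0 and limma 3.58.1 (log2 of TPM plus 1) were alternatives. Library measures had exact permutation tests (Python 3.11.15, numpy 2.4.6). Coordinates came from GENCODE 29 for 57804 genes matched by identifier. Scripts were tested on simulated data.

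The members and the gene lists were chosen with earlier results of these data known. Named genes were FASN, then the 10 highest and 10 lowest log2 differences of protein-coding genes that were called, did not overlap between classes and had a mean of at least 2 CPM, 4 noncoding genes in each direction by the same rule, and up to 3 called members of each list by smallest p, or 2 members where none was called. Other list members and settings are described by their counts or as background to them.

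Same-numbered libraries did not deviate together, as given below with the replicate block. Alternatives covered scaling, filters, covariates, libraries left out, TPM and a continuous 7SL share. Some items are not reported here.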

Additional observations from a re-analysis of the deposited data

Results flagged for a closer look

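Measures and gene levels were examined within each class, 226 cases in all. In 15 cases 1 library stood apart from the other 5 of its class by Dixon's criterion at the 95% level, of which chance gives about 1 in 20. HMGN2P5 was flagged in both classes and so counts as a case in each. In FASN knockdown replicate 3, of the low class, EGR1 stood at 1094 CPM (the other 5 at 77.0 to 442 CPM), ISYNA1 at 35.4 CPM (4.54 to 14.4 CPM), HMGN2P5 at 41.3 CPM (12.5 to 19.4 CPM) and NDUFA12 at 17.1 CPM, the lowest (30.6 to 36.4 CPM). In replicate 1 of the FASN knockdown after CSM, also low, the longer 7SK entry was at 181.5 CPM (4.81 to 46.0 CPM) and LARP7 at 56.3 CPM (24.6 to 34.7 CPM). FASN knockdown replicate 2, of the high class, had ENSG00000285283 at 155.4 CPM (85.1 to 110.8 CPM), DDB2 at 73.8 CPM (16.6 to 33.4 CPM) and MT-ND4L at 7.43 CPM, the lowest (23.2 to 32.6 CPM). Replicate 3 of the control after CSM, also high, had snoRNAs and scaRNAs at 0.587% of counts outside the RN7SL family (0.211% to 0.341%), TP63 at 63.9 CPM (1.42 to 11.5 CPM) and RNU12 at 0.390 CPM (0 to 0.129 CPM). Control replicate 2 had BIRC3 at 244.3 CPM (111 to 128.5 CPM) and NFKBIZ at 23.2 CPM (6.51 to 9.89 CPM). Control replicate 3 alone of the high class had counts of HMGN2P5, 1.14 CPM.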

How the results depend on the processing

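The number of genes called between high and low 7SL libraries, 3472, was 0 with fragment length as covariate, 1 in the CSM libraries alone, 12242 on deposited TPM, 1877 on TPM without the RN7SL family, 1820 without FASN knockdown replicate 2 and replicate 4 of the FASN knockdown after CSM, 948 with a log2 size of at least 1, 4853 in DESeq2, and 1741 to 3662 without 1 library at a time. With the log2 of the 7SL share as a continuous term, 5291 of 23730 genes were called. That fit held all 14 libraries, also those between the thresholds, and had the group of genotype and medium as covariate in place of genotype. Upper-quartile scaling put 42.2% of calls higher and scaling without the RN7SL family 59.9%, against 50.9%. TPM without the RN7SL family put 25.3% higher. Fragment length and the 2 libraries in doubt were examined as alternatives chosen after seeing the data, as was the sum of the 7SK entries, which left 3470 calls of 19705.

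With a replicate block the count was 1103, of which 1094 were among the 3472. The pairing check gave correlations of deviations from -0.36 to 0.31 over 19 same-numbered pairs, 5 of them over 0.1, so the numbers do not pair the libraries.

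Within the CSM libraries the class difference was 14.5 bases in fragment length (exact permutation p = 0.167) and -1.20 percentage points in mitochondrial share (exact permutation p = 0.0833). With the RN7SL family in the denominator the top 10 genes took 9.53 percentage points more, and the share of protein_coding transcripts differed by -6.30 percentage points, in the high class against the low. On deposited TPM, where the median of all genes was -0.67, only 2056 of the 3472 called genes kept their direction. Among the named genes that were called, those that turned had log2 differences of -0.26 for SRP54, -0.52 for SRP9, -0.0667 for TRAM1, -0.42 for SPCS3, -0.23 for SAR1A, -0.77 for SEC23A, -0.68 for COPB1, -0.14 for SNAPC5, -0.27 for LARP7, -0.16 for SNHG6, -0.11 for PMVK, -0.33 for DNAJC3, -0.36 for IFIT5, -0.75 for CDC6, -0.47 for TOP2A, -0.0257 for SOD1, -0.19 for GCLC, -0.0222 for ADGRE1 and -0.13 for NDUFA12. The cause of the other changes was not tested. Genes under 1 CPM and the depth of FASN knockdown replicate 2 limit the precision.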

Other observations

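The 2 libraries between the thresholds had nearly the same 7SL share, 6.35% and 6.33%, but differed in the measures that separated the classes. Control replicate 1 had a mean fragment length of 172 bases, 1.54% mitochondrial counts and 0.389% of 7SK counts on the longer entry, each within or near the range of the low class. Replicate 4 of the control after CSM had 204 bases, 0.771% and 6.57%. Its fragment length lay above that of every high library and its 7SK split just under their range. Genes at 1 CPM or more numbered 16336 and 15615.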
